A study of Mus musculus with 2 samples.

Results

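The RNAs of 9 genes of calcium and calmodulin signalling were described in neonatal mouse heart: the calmodulin genes Calm2 and Calm3, the 4 genes of calcium/calmodulin-dependent protein kinase II (CaMKII; Camk2a, Camk2b, Camk2d and Camk2g), the calcineurin catalytic subunits Ppp3ca and Ppp3cb, and the calcineurin regulator Rcan1. They were chosen by name, from 43346 Ensembl genes in the gene table, through the gene symbol that the annotation gives each identifier, and all 9 were found. Total RNA was sequenced from 2 single hearts of strain B6NCrl mice at postnatal day 0, pup 2 (replicate 1) and pup 3 (replicate 2) of pregnancy 1. No genotype or treatment is named in the labels and sex was not recorded. The hearts are labelled as single hearts of different pups but list the same donor, so the spread given here is that between the 2 libraries, taken as 2 animals. The labelled tissue was checked by its markers: all 7 cardiomyocyte markers were detected, with Tnnt2 (cardiac troponin T) at 10667 and 9972 TPM.

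Calcium that enters a heart cell is sensed by calmodulin, a small protein that changes shape when it binds calcium and then switches on other proteins. Among these, CaMKII is a kinase assembled from many subunits; it phosphorylates calcium channels and pumps, and it keeps part of its activity through autophosphorylation after calcium has fallen. Calcineurin is a phosphatase made of a catalytic A subunit and a calcium-binding B subunit; it dephosphorylates NFAT transcription factors, which then enter the nucleus, and both enzymes are known for their part in growth of the heart. Rcan1 binds calcineurin and restrains it, and 1 of its starts is itself known as a target of NFAT.

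Several results below turn on short stretches of sequence, which are shown first. Calm2 and Calm3 lie on different chromosomes and encode the same 149 residues, but with different codons. The first 120 bases of their coding sequences (GENCODE M21 annotation of mm10) are printed 5′ to 3′, with capitals at the 18 positions where the genes differ.
Calm2: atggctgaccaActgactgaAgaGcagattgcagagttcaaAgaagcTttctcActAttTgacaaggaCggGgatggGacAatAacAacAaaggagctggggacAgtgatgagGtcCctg
Calm3: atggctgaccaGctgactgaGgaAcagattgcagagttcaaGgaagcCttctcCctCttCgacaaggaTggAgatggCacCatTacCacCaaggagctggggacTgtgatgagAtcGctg
Over all 447 coding bases they differed at 78 positions, in 76 of 149 codons. Their main coding transcripts shared no 100-base window, and the longest shared run was 17 bases. The deposited counts of Calm2 and Calm3 carried almost no uncertainty from reads shared with other genes: the posterior SD was at most 0.0120% of the count.

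CaMKII subunits differ mainly in a variable stretch between the kinase and the association domain, where small exons are joined or skipped. Those of Camk2d (chromosome 3, + strand) and Camk2g (chromosome 14, - strand), the members at the highest level in the family, are given with capitals on the in-frame codons for lysine or arginine. In the 33-base exons these codons open the stretch known as a nuclear localisation signal.
Camk2d 33-base exon, chr3:126802937-126802969: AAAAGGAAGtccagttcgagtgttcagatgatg
Camk2d 60-base exon, chr3:126805857-126805916: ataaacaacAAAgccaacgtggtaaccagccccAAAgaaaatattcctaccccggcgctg
Camk2d 42-base exon, chr3:126808208-126808249: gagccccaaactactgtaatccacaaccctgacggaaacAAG
Camk2g 33-base exon, chr14:20747819-20747851: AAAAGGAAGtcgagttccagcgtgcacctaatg
Camk2g 69-base exon, chr14:20745792-20745860: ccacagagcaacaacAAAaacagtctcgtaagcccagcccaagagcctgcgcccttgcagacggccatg
The 33-base exons of Camk2d and Camk2g were identical at 26 of 33 bases, and each held 3 lysine or arginine codons. Both calcineurin catalytic subunit genes also have an optional 30-base coding exon, printed in lower case because it is compared as a whole.
Ppp3ca 30-base exon, chr3:136932011-136932040: ctactgttgaggctattgaggctgatgaag
Ppp3cb 30-base exon, chr14:20503247-20503276: ccacagttgaggctattgaggctgaaaaag
These 2 were identical at 26 of 30 bases. Exon positions come from M21, whereas the deposited values rest on GENCODE M4 of the same genome build, and 12 of 22 Camk2d transcripts had another length in M4.

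All 9 genes were detected, meaning 1 TPM (the deposited level, scaled per length of transcript) or more in both hearts, against 29.6% of all Ensembl genes. Calm2 stood highest, at 294.6 and 320.9 TPM. Camk2d followed at 95.3 and 83.0 TPM, and Calm3 at 79.3 and 74.5 TPM. Rcan1 held 48.5 and 39.8 TPM, between the calmodulins and the calcineurin catalytic subunits. Ppp3ca measured 28.9 and 27.7 TPM, and Camk2g 24.7 and 21.3 TPM. The lower end was Camk2a with 17.9 and 19.2 TPM, Ppp3cb with 19.3 and 17.5 TPM, and Camk2b with 2.58 and 1.88 TPM. The highest and the lowest of these levels were thus about 2 orders of magnitude apart within each heart.

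With 2 animals an exact sign-flip test cannot go below p = 0.5, so no p-value is given, and genes were called different when both hearts agreed in sign, the mean log2 difference exceeded the difference between hearts, and the deposited intervals of TPM did not overlap in either heart. By that rule 5 of the 8 neighbours in the order were separated. Calm2 lay above Camk2d by 3.09- and 3.87-fold. Rcan1 lay above Ppp3ca by 1.68- and 1.44-fold in TPM, though not in counts undivided by length (mean log2 0.050, not called), and Ppp3cb above Camk2b by 2.51 and 2.68 on the log2(TPM + 1) scale. The steps from Calm3 to Rcan1 and from Ppp3ca to Camk2g were also separated, but with coding transcripts only the Calm3 to Rcan1 step fell from 0.79 to 0.15 (log2) and was not called. Camk2d and Calm3 were not, since their intervals overlapped in replicate 2. Camk2g and Camk2a were not either: their intervals overlapped in replicate 2, and their mean log2 difference of 0.29 did not exceed the difference between hearts. Camk2a and Ppp3cb exchanged places between the hearts.

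**Figure D1:**
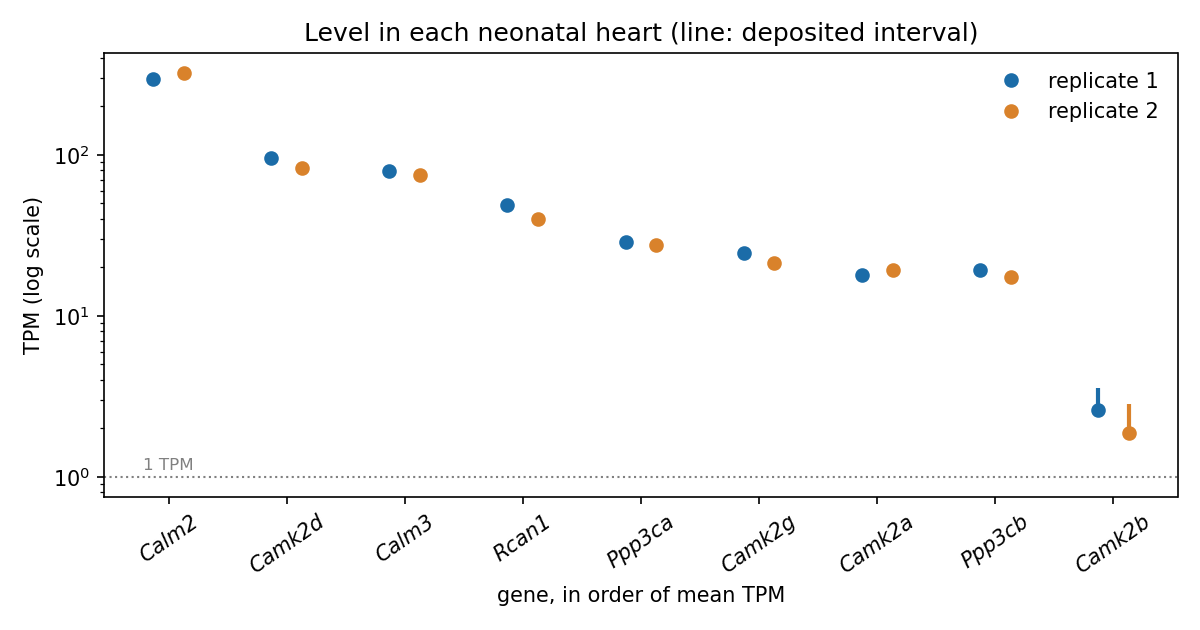
TPM of each of the 9 genes (log axis) in replicate 1 (blue) and replicate 2 (orange), with the deposited interval as a line, mostly hidden by the point. Calm2 is highest at about 308 TPM on average and Camk2b, the only gene under 5 TPM, is lowest at 2.23 TPM; the dotted line marks 1 TPM.

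Between the hearts, 0 of the 9 genes passed 1.5-fold in counts scaled for library size, where 2.07% of the 13463 genes whose counts averaged at least 50 did. Camk2b came nearest: its scaled counts were 311 and 211, a log2 ratio of -0.55 for replicate 2 over replicate 1. Rcan1 was next, with scaled counts of 3935 and 3269 and a log2 ratio of -0.27. Camk2d and Camk2g, with log2 ratios of -0.20 and -0.20, were lower in replicate 2 by nearly the same amount. Calm2 and Camk2a were higher in replicate 2, both by 0.14 on the log2 scale, and Calm3 was nearly level at 0.03. In all, 6 of 9 were lower in replicate 2, beside 50.6% of all genes tested. The median of the 9 was -0.11 against -0.0020 over all genes tested. In whole tissue, fewer cells of a type and less RNA per cell cannot be told apart.

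**Figure D2:**
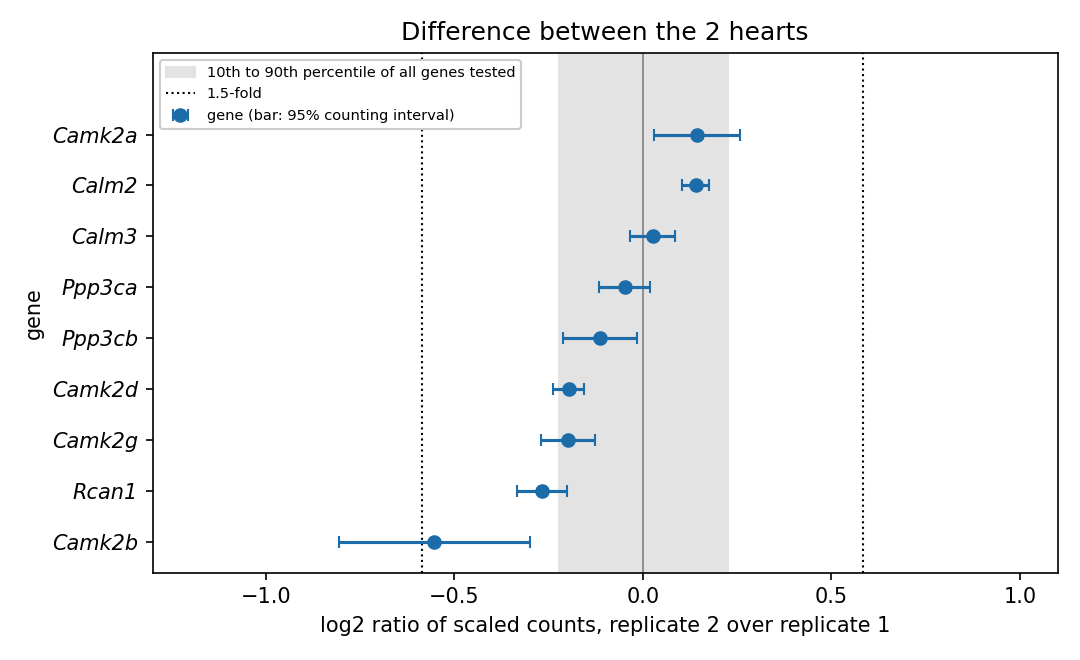
Log2 ratio of scaled counts, replicate 2 over replicate 1, for each gene, with the 95% counting interval as a bar; the grey band spans the 10th to 90th percentile of all genes tested (-0.22 to 0.23) and the dotted lines mark 1.5-fold. Every gene but Rcan1 and Camk2b lies within the band, and none lies past 1.5-fold.

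Calm2 (chr17:87433412-87446935, - strand) and Calm3 (chr7:16915379-16924114, - strand) both make calmodulin, and they differed in both level and form. Calm2 exceeded Calm3 by 3.72-fold in replicate 1 and 4.31-fold in replicate 2, a called difference. Almost all Calm2 RNA was its 1205-base coding transcript Calm2-201, with 98.8% and 99.1% of the gene's TPM. Calm3 was split: the coding Calm3-201 held 60.4% and 66.5%, and the 482-base noncoding Calm3-204 held 37.6% and 32.5%. Counted as reads, Calm3-201 held 89.5% and 91.8%, because a short transcript gains TPM from few reads.

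Coding transcripts alone measured 291.0 and 318.1 TPM for Calm2 and 47.9 and 49.5 TPM for Calm3, so Calm2 stayed above Calm3 without the noncoding RNA. Of the calmodulin-like genes, Calml4 was at 1.07 and 1.47 TPM, and Calml3 at 0.04 and 0 TPM.

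CaMKII RNA was mostly Camk2d (chr3:126596302-126846326, + strand), the subunit known as the main one of heart muscle. Camk2d made up 67.9% and 66.2% of the TPM of the 4 genes, 67.1% ± 1.15 (SD, n = 2). Camk2g (chr14:20734875-20794088, - strand), a widely expressed subunit, held 17.3% ± 0.411. Camk2a and Camk2b, best known from brain, held 12.7% and 15.3%, and 1.67% ± 0.238 of it. Camk2d exceeded Camk2g 3.87- and 3.90-fold, Camk2a 5.33- and 4.33-fold, and Camk2b 36.9- and 44.1-fold. Of the 6 pairs within the family 5 were called, and Camk2g against Camk2a was not.

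**Figure D3:**
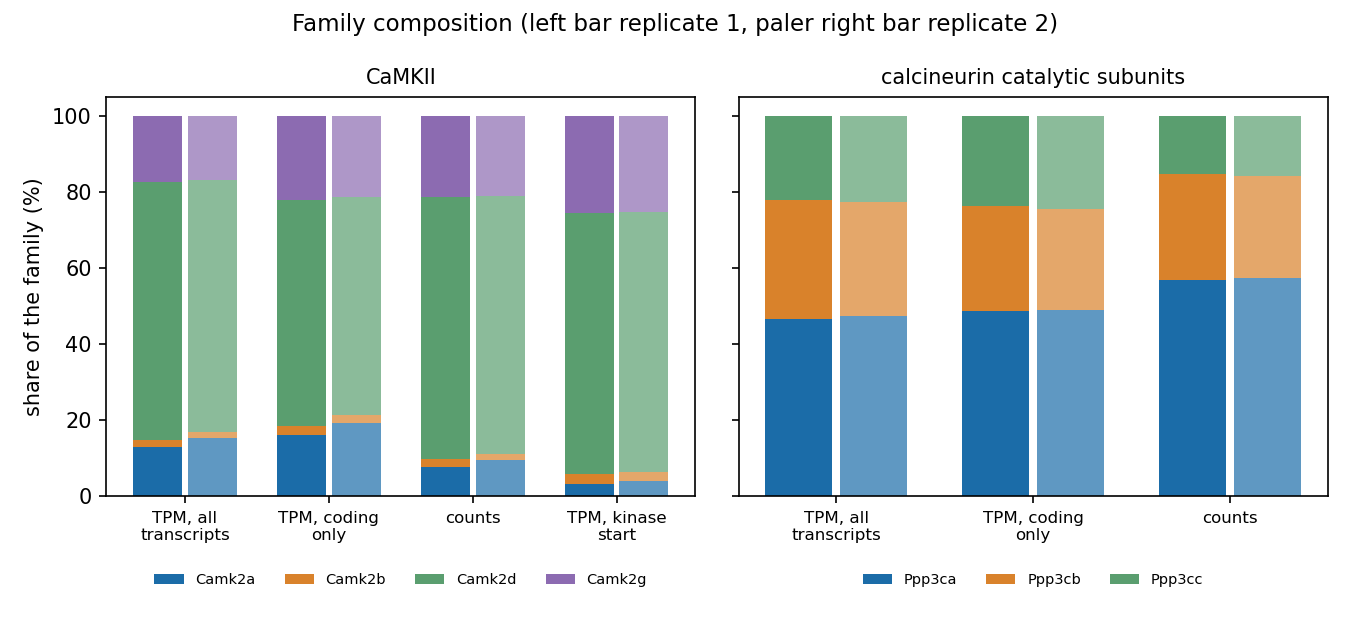
Share of each family (%) held by each gene, in replicate 1 (left bar) and replicate 2 (paler right bar), by TPM of all transcripts, TPM of coding transcripts, and counts, and for CaMKII also by TPM of transcripts from the kinase start. Camk2d leads CaMKII and Ppp3ca leads the calcineurin catalytic subunits in every version drawn.

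Within Camk2d, the leading form was Camk2d-202, which joins the 42-base exon shown above without the 33- or the 60-base exon, the arrangement known as delta 9. It held 45.9% and 44.9% of the gene's TPM and 61.7% ± 0.679 (SD, n = 2) of its counts. Coding transcripts with both the 60- and the 42-base exon, known as delta A, held 23.1% ± 0.502 of TPM and 29.9% of counts, mostly in Camk2d-206. Transcripts from the same start that hold none of the 3 exons held 0.24% and 0.33% of TPM, all of it in Camk2d-216, which codes for 361 residues only. Camk2d-204, of 478 residues and the delta C arrangement, was at 0 counts in both hearts, with deposited upper bounds of 0.334 and 0.297 TPM. These shares of TPM differed by about 1 percentage point or less between the hearts. Camk2d-202, Camk2d-203 and Camk2d-204 are among the transcripts whose length differs between M4 and M21. Their lengths were 4110 against 4075 bases, 1574 against 4169, and 2488 against 2722. Their exons are therefore known here only as M21 gives them, whereas Camk2d-206 kept its length of 4180 bases.

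The 33-base exon, which marks the nuclear delta B form, was the hardest to place. Transcripts with this exon in M21 held 15.8% and 16.6% of Camk2d TPM, but all of it was in Camk2d-218, a retained-intron transcript of 389 bases in the deposited table and 591 bases in M21. It rested on 167 and 151 counts, or 1.59% of the gene's counts. The coding transcript with the exon, Camk2d-205, had 0 counts in both hearts, with deposited upper bounds of 0.152 and 0.154 TPM. Its length was 2669 bases as deposited and 3059 bases in M21. A count of 0 allows up to 3 counts, or 0.0278% and 0.0326% of the gene's counts, for counting error only. In M21 the exon before the 33-base exon is 35 bases long in Camk2d-205 and 38 bases long in Camk2d-202 and Camk2d-206, so the coding model with the 33-base exon also begins its preceding exon at another base. Whether reads joining the 38-base exon to the 33-base exon were assigned elsewhere was not tested. The level of coding delta B RNA is therefore not settled by these tables. Of all Camk2d TPM, 31.1% lay in transcripts not annotated as protein coding, which held 7.90% of its counts.

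Camk2g showed a more even mix and carried its 33-base exon in coding RNA. Camk2g-201, with the 33- and the 69-base exons, held 40.4% and 38.7% of the gene's TPM. Camk2g-202, with the 69-base exon only, held 30.6% and 33.2%, and Camk2g-203, with neither, 29.1% and 28.1%. The deposited intervals of the 3 forms overlapped in each heart, so their order is not separated. Camk2g-202 and Camk2g-203 differ in length between M4 and M21 (3670 against 3604 bases, and 3601 against 3564). Their exons are therefore known only as M21 gives them. All 3 are coding and of similar length, and the shares of counts (40.0%, 31.9% and 28.1%) were close to those of TPM. Coding Camk2g RNA with the 33-base exon thus stood at 9.96 and 8.23 TPM.

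Camk2a RNA (chr18:60925618-60988152, + strand) was mainly not that of a full kinase. Transcripts with an internal start held 83.1% and 82.5% of Camk2a TPM. Camk2a-204, of 979 bases and 200 codons, held 59.6% and 56.7%, and Camk2a-202, of 189 codons, held 23.5% and 25.8%. Camk2a-204 begins 37922 bases downstream of the start of the longest form, past 12 of its coding exons. Such internal starts of Camk2a are known in muscle for alpha-KAP, an anchoring protein that keeps the association domain of CaMKII but has no kinase domain. By counts the internal-start transcripts held 52.3% ± 0.255 (SD, n = 2), because the kinase transcript Camk2a-203 is 4970 bases long.

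Full-length Camk2a was low: transcripts from the kinase start measured 3.03 and 3.35 TPM. Among transcripts from the kinase start, a comparison added after the data had been seen, Camk2d held 68.4%, Camk2g 25.6%, Camk2a 3.59% and Camk2b 2.46% of CaMKII TPM. Pairs on that measure were judged without the interval condition. On that measure Camk2g exceeded Camk2a by 2.51 on the log2(TPM + 1) scale, where over all transcripts the pair was not separated. Camk2a and Camk2b were not separated on it (mean log2 -0.39 for Camk2b over Camk2a), where over all transcripts Camk2a stood 6.94- and 10.2-fold above Camk2b.

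Camk2b (chr11:5969644-6066362, - strand) rested on 314 and 209 counts, and the deposited intervals of its forms were wide. Camk2b-209 led in both hearts, with 53.6% and 33.6% of the gene's TPM, and Camk2b-207 held 17.1% and 30.5%. The deposited interval of Camk2b-209 ran from 0.173 to 1.41 TPM in replicate 1, and from 4.3e-05 to 0.747 TPM in replicate 2. Camk2b-205 was at 0.28 TPM in replicate 1 and at 0 in replicate 2, and Camk2b-210 held 14.9% and 18.8%. The gene's own TPM lay just under its deposited interval in both hearts, at 2.58 against 2.59 to 3.55 and at 1.88 against 1.92 to 2.82, while the posterior means were 3.06 and 2.35 TPM.

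Markers of other cells known to use Camk2a or Camk2b were mostly below 1 TPM. Of 8 neuron and Schwann cell markers, 2 were detected (Uchl1 and Stmn2). The list summed to 47.0 and 54.7 TPM, of which Uchl1 made 43.3 and 48.7. Both Uchl1 and Stmn2, the latter at 2.98 and 3.67 TPM, lay above Camk2b itself at 2.58 and 1.88 TPM. The synaptic genes Snap25 and Syt1 were at 0.24 and 0.18 TPM and at 0.06 and 0.11 TPM. Of 8 skeletal muscle markers, 3 were detected (Acta1, Tnni2 and Tnnt3) and Myh4 was at 0. That list summed to 123.7 and 101.9 TPM, nearly all of it Acta1, a skeletal actin gene that the fetal heart also expresses. The part of these cells in the Camk2a and Camk2b values was not tested.

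The known inhibitors of CaMKII were near the detection limit. Camk2n1 measured 1.24 and 1.35 TPM, and Camk2n2 0.26 and 0.38 TPM, against 140.5 and 125.3 TPM for the 4 kinase genes together.

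**Figure D4:**
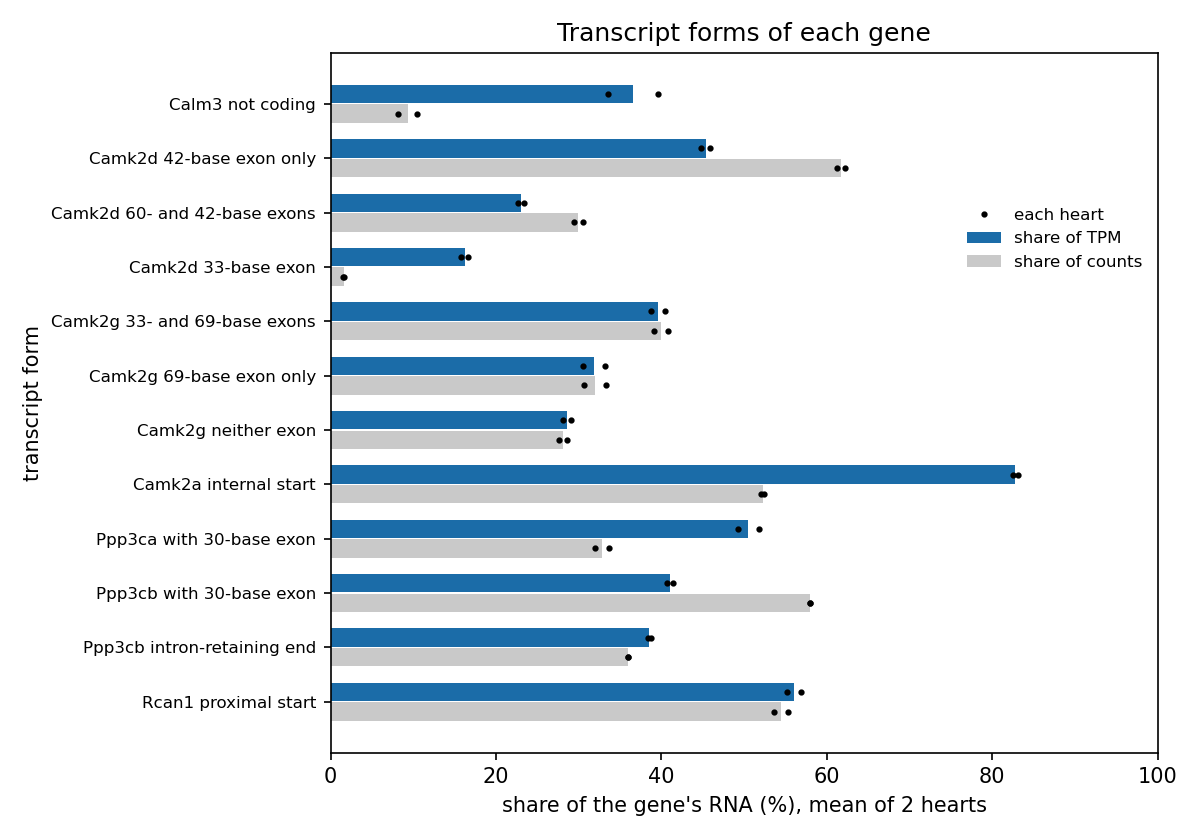
Share of each gene's RNA (%) held by named transcript forms, by TPM (blue) and by expected counts (grey), as the mean of the 2 hearts, with a black dot for each heart. The dots lie close together for nearly every form, whereas the 2 scales part by more than 10 percentage points for Calm3, the Camk2d 42-base and 33-base exon forms, the Camk2a internal start and both 30-base exon forms.

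Calcineurin's catalytic subunits were led by Ppp3ca (chr3:136670124-136937727, + strand), which makes the alpha form, with 46.6% and 47.3% of the TPM of the 3 genes. Ppp3cb (chr14:20499364-20546573, - strand), the beta form, held 30.5% ± 0.911 (SD, n = 2). Ppp3cc, the gamma form, held 22.5% ± 0.433, from 13.8 and 13.4 TPM. Ppp3ca exceeded Ppp3cb by 0.56 and 0.63 on the log2(TPM + 1) scale, and all 3 pairs were called. The regulatory B subunit Ppp3r1 stood at 59.7 and 55.5 TPM, near the sum of the catalytic genes, which was 62.0 and 58.5 TPM. Ppp3r2, the B subunit known from testis, was at 0 counts in both hearts.

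Ppp3ca was divided between 2 coding transcripts that differ in the 30-base exon shown above. Ppp3ca-201, with the exon, held 51.8% and 49.3% of TPM, and Ppp3ca-202, without it, held 45.8% and 46.9%. By counts Ppp3ca-202 led with 66.9% ± 1.05 (SD, n = 2), being 4758 bases long against 2194. The order of the 2 forms therefore turned with the scale, and no form is called the main one here.

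Ppp3cb had a large share of a form with another end. Ppp3cb-206 ends in a last exon of 1051 bases (chr14:20507671-20508721) that begins as a 98-base exon of the longer forms does and runs on into the intron. It held 38.3% and 38.8% of the gene's TPM and 36.0% of counts, encodes 497 residues against 524 for Ppp3cb-205, and has 12 exons against 14. Its structure is that of the variant known as CnA beta 1, which lacks the autoinhibitory end of calcineurin. Transcripts with the 30-base exon, Ppp3cb-205 and Ppp3cb-202, together held 41.4% and 40.7% of TPM. Their estimated split differed between hearts: Ppp3cb-205 held 32.3% and 24.3%, and Ppp3cb-202 held 9.07% and 16.4%. For both, however, the deposited intervals of the 2 hearts overlapped, so the shift is not separated. They were 4.88 to 7.02 and 3.11 to 5.15 TPM for Ppp3cb-205, and 1.01 to 2.60 and 2.00 to 3.60 TPM for Ppp3cb-202. The retained-intron transcript Ppp3cb-203, of 321 bases, held 11.7% and 9.33% on 19.1 and 13.7 counts.

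The transcript with the highest share was the same in both hearts for 9 of 9 genes. Without Camk2b, which is under 5 TPM, it was 8 of 8, against 94.6% of the 6445 genes at 5 TPM or more with more than 1 transcript. By share of counts it was 8 of 9, the exception being Ppp3cb.

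Rcan1 (chr16:92391953-92470867, - strand) is read from 2 starts, and both were in use. The proximal start gives Rcan1-201, of 198 codons, the form known to be induced through calcineurin and NFAT; the distal start gives Rcan1-202, of 251 codons. The 250 bases upstream of each start are shown from RefSeq (GRCm38.p6) as read on the gene's strand, with matches to 3 motifs in capitals on either strand: GGAAA, the core that NFAT factors bind, TGACTCA, an AP-1 site, and TGACGTCA, a cyclic AMP response element.
Rcan1 proximal, chr16:92400079-92400328: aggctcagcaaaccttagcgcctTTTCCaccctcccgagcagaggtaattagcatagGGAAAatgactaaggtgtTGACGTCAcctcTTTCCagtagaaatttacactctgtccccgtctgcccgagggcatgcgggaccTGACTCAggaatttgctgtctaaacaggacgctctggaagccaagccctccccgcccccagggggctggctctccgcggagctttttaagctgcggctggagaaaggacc
Rcan1 distal, chr16:92466170-92466419: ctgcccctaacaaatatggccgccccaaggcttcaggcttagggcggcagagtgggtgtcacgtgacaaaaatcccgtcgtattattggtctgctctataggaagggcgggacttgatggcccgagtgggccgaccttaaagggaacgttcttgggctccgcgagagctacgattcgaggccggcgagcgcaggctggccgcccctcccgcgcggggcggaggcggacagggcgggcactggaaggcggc
The proximal window held 3 matches to GGAAA, whose first bases lay 227, 193 and 163 bases upstream of the start, 1 to TGACGTCA at 175 and 1 to TGACTCA at 110, with no overlaps. The distal window held none of the 3. Of 32851 upstream windows in the table, 55.6% held GGAAA at least once and 6.39% at least 3 times, 4.46% held TGACTCA and 1.55% held TGACGTCA. The motifs were chosen as those known for this gene, and a match describes letters only. Promoter entries were found for 5 of the 9 genes, and only those of Rcan1, which has 2 starts to compare, are shown.

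The proximal form measured 27.6 and 22.0 TPM and the distal form 20.9 and 17.8 TPM. The proximal form thus held 56.9% and 55.2% of Rcan1 TPM, 56.0% ± 1.17 (SD, n = 2), and 54.5% of counts. Both forms were lower in replicate 2, the proximal by 1.24-fold and the distal by 1.16-fold in scaled counts. Of its relatives, which also bind calcineurin, Rcan2 stood above Rcan1 at 65.4 and 57.6 TPM, and Rcan3 below it at 5.81 and 5.32 TPM. All 3 pairs of the family were called.

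Partners and targets were taken from 11 lists of 99 genes, which include the 9. Over all Ensembl genes 29.6% were detected, and 2.07% of the genes tested passed 1.5-fold. At that share, 0 past 1.5-fold is the likeliest outcome for lists this short. The calcineurin regulators and anchors had 12 of 14 members detected and 0 past 1.5-fold, with Myoz2 (calsarcin 1, which ties calcineurin to the Z-disc) at 438.6 and 428.5 TPM and Fkbp1a at 344.0 and 357.1 TPM. All 8 NFAT factors and NFAT kinases were detected and 0 passed 1.5-fold. The kinases Csnk1a1 and Gsk3b, which act against NFAT, were at 167.5 and 146.2 TPM and at 24.0 and 23.7 TPM, whereas Nfatc1 was at 6.18 and 6.23 TPM and Nfatc2 at 5.50 and 6.18 TPM.

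All 15 CaMKII targets of heart were detected and 0 passed 1.5-fold. Pln, the brake on the calcium pump that CaMKII phosphorylates, measured 1710 and 1632 TPM, and Atp2a2, the pump, 567.0 and 508.3 TPM. Camta1 was at 101.2 and 101.4 TPM and Mef2a at 79.7 and 70.8 TPM. The phosphatases that can act on CaMKII were all detected, 7 of 7, led by Ppp1ca at 557.2 and 576.8 TPM, then Ppp1cc, Ppp1cb and Ppp2ca. The 11 splicing regulators tied to Camk2d were all detected, led by Srsf1 at 62.8 and 61.5 TPM, then Mbnl2, Mbnl1 and Celf1, and 0 passed 1.5-fold.

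Other calmodulin-dependent kinases were detected for 11 of 16, with Mylk3 (cardiac myosin light chain kinase) at 257.6 and 241.4 TPM and Camk1 at 71.8 and 74.3 TPM, then Eef2k and Dapk3. Of the 14 with enough counts to test, 3 passed 1.5-fold, against 2.07% of all genes tested. Dapk2 (3.54 and 5.37 TPM) and Camkk1 (0.52 and 0.83 TPM) were higher in replicate 2, and Mylk4 (0.98 and 0.64 TPM) was lower. All 3 rested on few counts: 226 and 339 for Dapk2, 66 and 105 for Camkk1, and 207 and 134 for Mylk4. Their log2 ratios were 0.61, 0.68 and -0.59, with 95% counting half-widths of 0.24, 0.44 and 0.31. Each interval thus also held changes under 1.5-fold, and the 2.07% includes genes with far more counts. Of 8 calmodulin-binding and modifying proteins 7 were detected, with Pcp4l1 at 124.4 and 121.8 TPM and Marcksl1 at 102.6 and 104.7 TPM, then Marcks and Gap43.

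Of 5 genes known to respond to calcineurin and NFAT in heart, 4 were detected, and of the 4 with enough counts to test 2 passed 1.5-fold (2.07% of all genes tested did), both lower in replicate 2: Nppb, a natriuretic peptide gene, at 360.0 and 142.5 TPM, and Myh7, the fetal myosin heavy chain gene, at 607.3 and 381.5 TPM. Acta1 and Trpc1 were at 113.3 and 90.6 TPM and at 1.69 and 1.76 TPM. Alongside, all 5 erythroid markers were lower in replicate 2, summing to 6036 and 3916 TPM, and of 5 lung epithelium markers Scgb3a2 (2.96 and 563.0 TPM) and Scgb1a1 (0.97 and 74.3 TPM) were higher in replicate 2 and Sftpc (25.5 and 0.34 TPM) was lower. Their part in the difference was not tested.

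**Figure D5:**
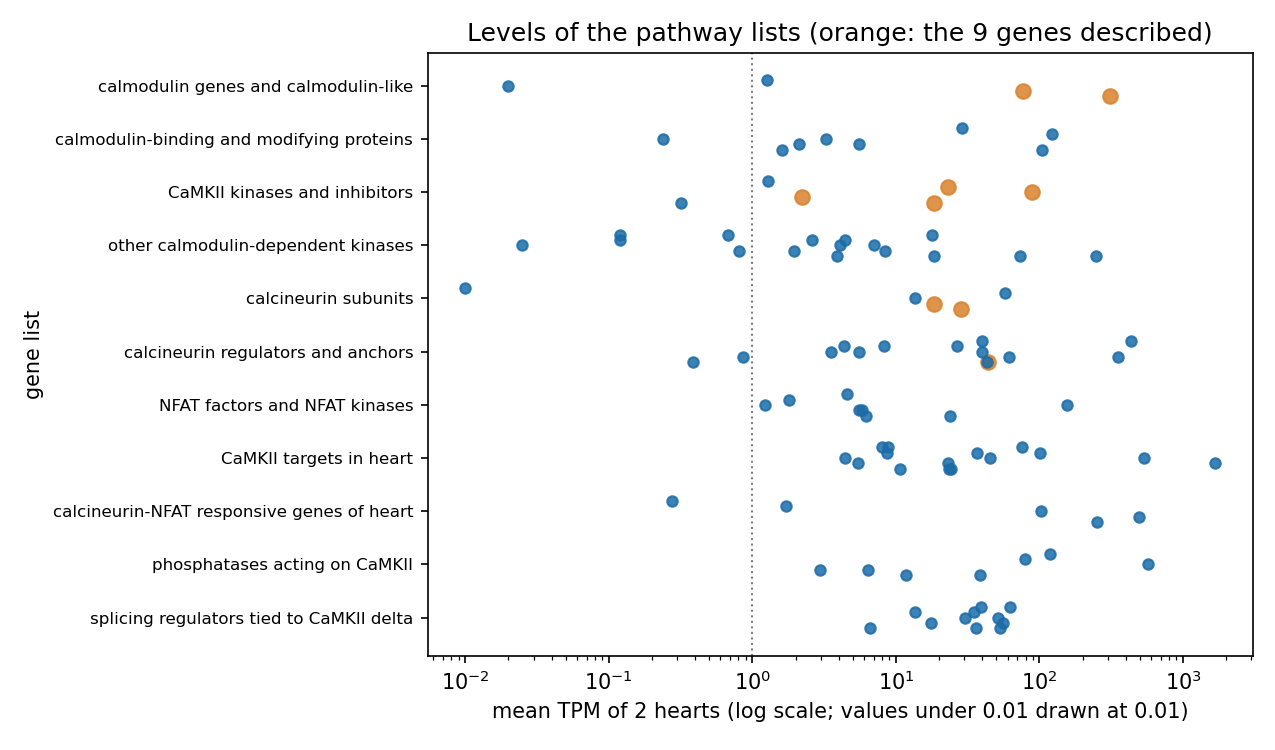
Mean TPM of the 2 hearts (log axis) for every gene of the 11 lists, with the 9 genes described in orange; the dotted line marks 1 TPM and values under 0.01 TPM are drawn at 0.01. Calm2 and Calm3 lie in the upper part of their list, Camk2d leads the CaMKII list, and the highest of all is Pln at 1671 TPM.

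Libraries held 46151722 and 44707283 expected counts, and the 9 genes took between 209 (Camk2b, replicate 2) and 13355 (Calm2, replicate 2) of them. An antisense gene overlaps Camk2d (Gm15551, 12 and 14 counts) and another Ppp3cb (1810062O18Rik, 35.6 and 25.9 counts). No label or header says whether counting used strand, so those reads cannot be told apart, but they are few beside 10782 and 9211 counts of Camk2d and 1747 and 1581 of Ppp3cb.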

How the data were processed

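Gene and transcript tables of each library, made by the authors without pooling, were used. Per the deposited read-me, values were made on mm10 with GENCODE M4; its columns carry RSEM's names (versions not given in the sources used here). The deposited expected counts estimate how many reads came from a feature, splitting reads that match several. TPM, per the file headers, is the count per effective length (length minus 99 bases in the deposited tables), scaled to a fixed total. The deposited percent column is a transcript's share of its gene's TPM. The deposited bounds of the TPM interval, a signal in TPM units, have no stated width. The labels give 10 ng of RNA per library, a size range above 200 bases and spike-ins.

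Symbols, coordinates and transcript structures came from GENCODE M21 (42462 of 43346 identifiers matched), and promoter windows from RefSeq. Levels were compared as log2(TPM + 1) within each heart. Ratios between hearts used expected counts scaled by TMM (edgeR 4.0.16, R 4.3.3) with a prior count of 2, for genes whose counts averaged at least 50. DESeq2 1.42.0 supplied other size factors. No count model was fitted, since 1 group of 2 gives no contrast. The script for ratios was tested on simulated data. Python 3.11.15, pandas 2.3.3, numpy 2.4.6 and matplotlib 3.10.9 were used. Intervals on counts cover counting error only.

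Named were all 9 genes, the rest of the calmodulin, CaMKII and calcineurin subunit lists, Rcan2, Rcan3, the 4 highest genes of each other list, any list gene past 1.5-fold, and transcripts holding 10% or more of their gene in either heart. Genes and lists were chosen with earlier results of these data known. Some planned items are not reported here.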

Additional observations from a re-analysis of the deposited data

How the results depend on the processing

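The 9 genes stayed detected at 0.5 TPM and by the lower interval bound, and 8 did at 5 TPM. The pairs called within families stayed at 12 or 13 of 13, and the separated neighbours were 5 to 7 of 8, under another pseudocount (0.1), posterior mean TPM, coding transcripts only, counts not divided by length, or either heart alone. Behind these totals, calls with coding transcripts only or by counts rested on sign and spread between hearts, without the interval condition. Calls in 1 heart alone had no spread between hearts to use. The Camk2g and Camk2a pair was called by counts (log2 1.33) and without replicate 2 (0.44). Camk2d over Calm3 was called with coding transcripts only (0.33), by counts (1.16) and without replicate 2 (0.26). With TPM of all transcripts, its 0.26 and 0.15 in the 2 hearts also met the sign and spread conditions, and only the interval condition failed. Camk2a and Ppp3cb, whose TPM intervals overlapped in both hearts, passed the 2 looser conditions in opposite directions. Their log2 ratio was 0.27 with coding transcripts only and -0.43 by counts. Calm3 over Rcan1 lost its call with coding transcripts only (0.15), and Rcan1 over Ppp3ca lost its call by counts (0.050). Camk2d's share of CaMKII moved to 68.4% by counts, 58.4% with coding transcripts only and 68.4% from the kinase start. Ppp3ca's share was 47.5% by posterior mean TPM, 57.0% by counts and 48.8% with coding transcripts only. The share of Camk2d with the 33-base exon was 1.59% by counts, and 0 both with coding transcripts only and, in an alternative added after seeing the data, without transcripts whose length changed between annotations. The proximal share of Rcan1 was 54.5% by counts. With 1 heart left out, the shares ran from 66.2% to 67.9% for Camk2d, 46.6% to 47.3% for Ppp3ca, 15.8% to 16.6% for the 33-base exon and 55.2% to 56.9% for Rcan1. No gene passed 1.5-fold between hearts under DESeq2 size factors, total counts, TPM ratios or posterior mean counts, and 2 (Camk2b and Rcan1) passed 1.2-fold, as did 15.2% of all genes. By construction, coding transcripts only drops the short noncoding ones, and counts are not divided by length. No paired analysis was possible because there is 1 group. Depth limits the transcript shares of Camk2b and the lowest transcripts.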
